A study of Mus musculus with 4 samples.

Results

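The solute carrier genes encode membrane proteins that move sugars, amino acids, nucleosides, metals, ions and metabolites across the plasma membrane and the membranes of organelles. Members were chosen by name: a gene symbol starting with Slc followed by a digit in both deposited RNA-Seq tables, which held 163 such genes. A set of 13 carriers, among them the amino acid carriers *Slc7a11* and *Slc7a5*, was left out by name, and 12 of them have a row in the tables. A further 2 genes (*Slc38a10* and *Slc39a14*) had a failed estimate, and 6 were below an FPKM (sequenced fragments scaled by transcript length and by library size) of 1 in all 4 libraries. The remaining 143 members are described here, out of 9779 genes with a usable value. Of these, 139 are carriers in 41 families, and 4 are proteins only named after a carrier (*Slc9a3r1*, *Slc9a3r2*, *Slc4a1ap* and *Slc7a6os*). The members nearest to the limit by their highest FPKM were *Slc25a24* at 1.07, *Slc16a10* at 1.2 and *Slc38a5* at 1.42, and the genes just outside it were *Slc35b3* at 0.991, *Slc17a9* at 0.964 and *Slc16a14* at 0.956.

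RNA-Seq was carried out on female mouse embryonic stem cells (ESCs) of the LF2 line, strain 129/J, which had been grown on feeder cells and then taken through passages without them. All cells received a vehicle or an agent on each of 2 axes for 24 hr: PBS or L-ascorbic acid (AA, vitamin C) at 50 µg/ml, and DMSO or GSK-J4 at 10 µM. The groups are PBS+DMSO, PBS+GSK-J4, AA+DMSO and AA+GSK-J4, with 1 library in each, all from the same line. GSK-J4 is a small molecule that inhibits JmjC histone demethylases, described first for the H3K27 demethylases Utx and Jmjd3, and AA is a cofactor that can activate this enzyme class. The comparisons asked how GSK-J4 treatment altered expression without and with AA, and how AA altered it under each vehicle or inhibitor.

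Solute carriers are sorted by sequence into numbered Slc families, and a family often, but not always, shares a kind of substrate. The largest family, Slc25, sits mainly in the inner mitochondrial membrane and exchanges nucleotides, phosphate and intermediates of metabolism with the cytosol. In ESCs, glucose, lactate and amino acid carriers supply a metabolism that is strongly glycolytic.

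Each comparison below sets 1 library against 1 other, so no replicate error can be given and no p-value was computed. An additive fit of GSK-J4 and AA over the 4 libraries, which would leave 1 residual degree of freedom, was not run. Where 4 FPKM values are given in a row, they follow the order of groups above. A log2 ratio is log2 of (FPKM + 1) in one library over (FPKM + 1) in the other, a scale that understates the change of genes with low values. A member is called higher or lower where this ratio is at least 2-fold, counting a gene as tested when either of the libraries compared reached an FPKM of 1. The 2 GSK-J4 comparisons each lie within a deposited table, but the AA comparisons cross the tables, and whether these were scaled together is not stated. In bulk RNA, fewer cells of a kind and less RNA per cell cannot be told apart. Summed over the members, expression was 4019 FPKM in PBS+DMSO against 2936 in PBS+GSK-J4, and 3810 in AA+DMSO against 2874 in AA+GSK-J4. This was between 1.06% and 1.11% of the summed FPKM of all genes in each library, and that total itself was lower in both GSK-J4 libraries (275575 and 271205) than in the DMSO libraries (360621 and 342327). The ESC markers *Pou5f1*, *Nanog*, *Sox2*, *Esrrb*, *Klf4*, *Tdgf1*, *Dppa5a* and *Fgf4* all had values and summed to 2189, 1348, 1964 and 1212 FPKM in the order above. Of 10 markers of fibroblasts, 4 had a value (*Col1a1*, *Col1a2*, *Thy1* and *Twist1*), none was at 0 in any library, and their sum lay between 10.6 and 13.7 FPKM. The part of feeder cells in the results was not tested.

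GSK-J4 without AA left the members spread to both sides. Of 142 members tested, 10 were higher (7.04%), beside 4.96% of 9196 genes tested, and 4 were lower (2.82%), beside 3.5% of these genes. With AA, 6 of 140 members were higher (4.29%, beside 4.13% of all genes tested) and 4 were lower (2.86%, beside 3.38%). These shares are close to those of all genes. The median log2 ratio of the members was 0.03 without AA and -0.00 with AA, whereas the median of all genes tested was -0.17 and -0.16. The SD across members was 0.65 without AA and 0.55 with AA, beside 0.60 and 0.57 across all genes.

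The members' medians were thus above those of all genes by 0.21 and 0.15. Ratios under GSK-J4 were lower in highly expressed genes, and set beside the 300 genes nearest to it in level, a member differed by a median of 0.12 without AA and 0.09 with AA. Among the members reaching 5 FPKM in either library the median without AA was on the other side of 0, at -0.14. Among members with a mean FPKM under 5, 7 of 65 were higher without AA (10.8%), beside 8.72% of all genes in that range. Between 5 and 20 FPKM the share was 3.7%, beside 3.78% of all genes, and from 20 FPKM upward the members' median was -0.39, beside -0.46 for all genes. With AA, 6.45% of the members under 5 FPKM were higher, beside 7.22% of all genes in that range.

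**Figure D1:**
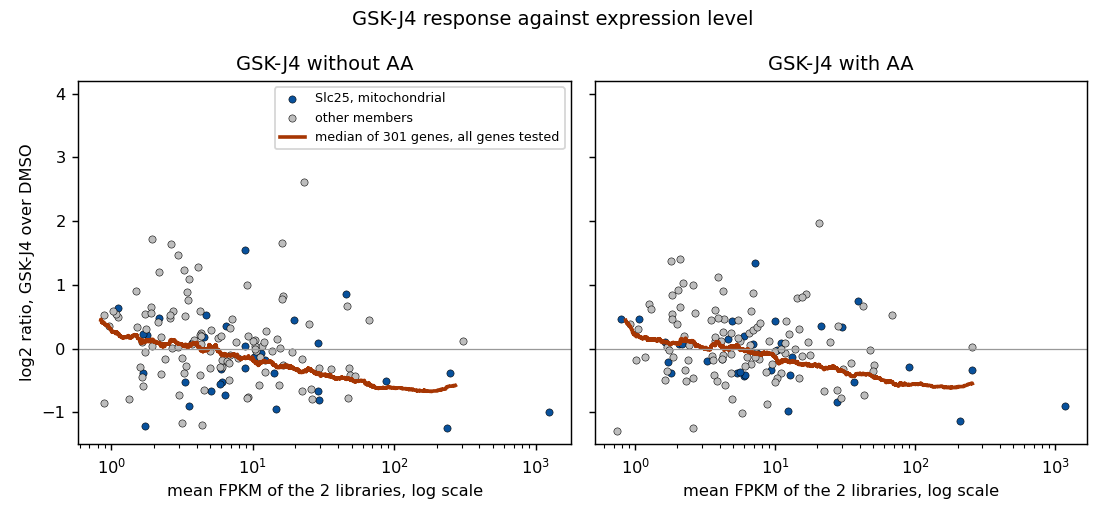
Log2 ratio of GSK-J4 over DMSO against the mean FPKM of the 2 libraries (log scale) for each member tested, without AA (left) and with AA (right), with Slc25 members in dark blue. The line is a running median over all genes tested, which falls from above 0 at low FPKM to below -0.5 at high FPKM, and members lie on both sides of it in each range.

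How the libraries are scaled decided the balance of the calls. As deposited, 71.4% of the members called without AA and 60.0% of those called with AA were higher. After the log2 ratios were centred on the median of all genes these shares were 82.4% and 84.6%, after division by the upper quartile 94.1% and 86.7%, and after the library totals were made equal 100% and 88.2%. The calls over all genes moved alike: the higher ones were 58.6% and 55.0% of them as deposited, 79.7% and 77.1% after centring, 84.4% and 81.9% after division by the upper quartile, and 89.3% and 86.3% with equal totals. Those last 2 scalings moved the median of all genes from -0.17 to 0.07 and 0.16 without AA, and from -0.16 to 0.07 and 0.14 with AA. The members' median stayed above the median of all genes by 0.10 to 0.24 across the alternatives tried, in both GSK-J4 comparisons.

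The 2 GSK-J4 comparisons use different libraries. Of 139 members tested in both, 116 (83.5%) had a ratio of the same sign, and so did 85.7% of all genes. Of the 10 members higher without AA, 9 had a ratio above 0 with AA, beside 408 of 426 over all genes. Of the 4 lower without AA, 3 were below 0 with AA, beside 291 of 308 over all genes. Among all 8972 genes tested in both, 283 were higher past 2-fold in both comparisons and 165 were lower. Among the 139 members these were 5 higher ones (*Slc4a11*, *Slc22a18*, *Slc37a2*, *Slc25a42* and *Slc1a1*) and 3 lower ones (*Slc25a4*, *Slc6a15* and *Slc29a2*).

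**Figure D2:**
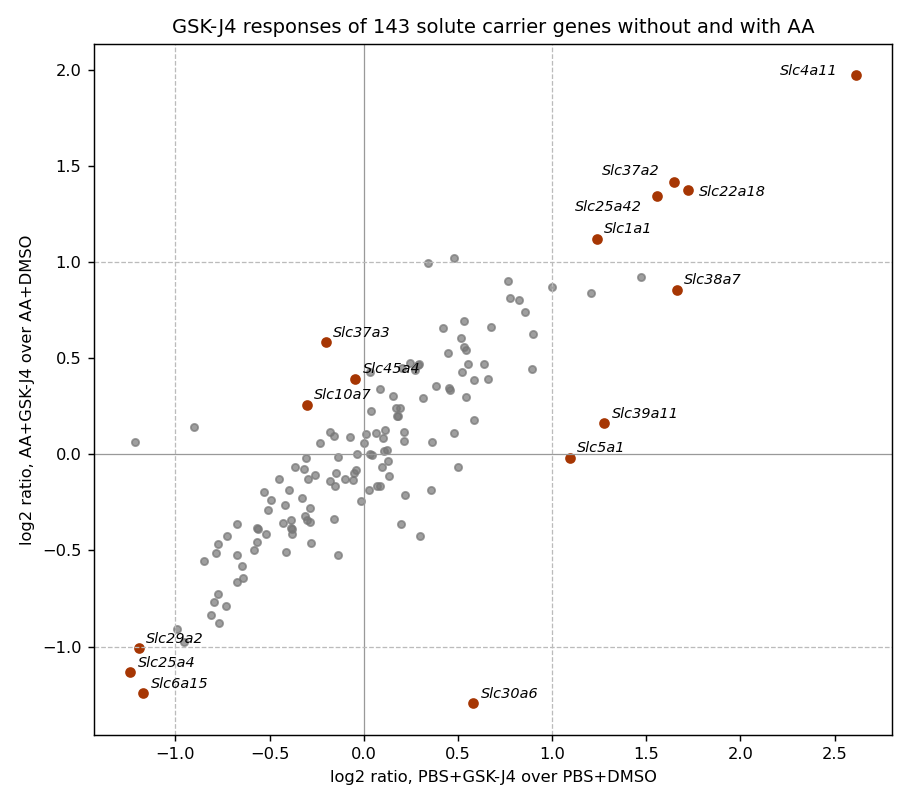
Log2 ratios of the 143 members for GSK-J4 without AA (x axis) and with AA (y axis), 1 point per gene, with dashed lines at 2-fold. The points rise together from *Slc25a4* at the lower left (-1.24 and -1.13) to *Slc4a11* at the upper right (2.61 and 1.97), and *Slc30a6*, *Slc5a1* and *Slc39a11* lie away from the others.

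Because these genes moved alike in both comparisons, the sequence before their transcription start was examined. The set of RefSeq starts at hand (build GRCm38.p6) held 106 members, including 6 of the 8 genes. It had no entry for 37 members, among them *Slc4a11* and *Slc6a15*, which does not mean that RefSeq lacks them. Sequence could thus be examined for 6 of the 8 genes. Of these, 4 are shown 5′ to 3′ on the gene's strand, each cut where the gene's span in the deposited tables begins. They were picked to show a start without CpG, a motif match, the most CpG-rich start of the higher genes, and the most abundant lower gene. Capitals mark a match to the motif TGACTCA, known as the element bound by Jun and Fos proteins.
Slc22a18, chr7:143473539-143473716, + strand: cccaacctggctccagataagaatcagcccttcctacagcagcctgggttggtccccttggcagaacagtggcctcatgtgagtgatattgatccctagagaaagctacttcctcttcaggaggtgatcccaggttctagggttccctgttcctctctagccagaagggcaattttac
Slc37a2, chr9:37255739-37255988, - strand: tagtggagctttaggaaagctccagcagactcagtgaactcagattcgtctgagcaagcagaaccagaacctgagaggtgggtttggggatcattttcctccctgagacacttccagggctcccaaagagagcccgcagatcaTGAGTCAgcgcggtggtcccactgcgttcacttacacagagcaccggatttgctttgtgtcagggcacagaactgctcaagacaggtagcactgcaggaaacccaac
Slc1a1, chr19:28834885-28835061, + strand: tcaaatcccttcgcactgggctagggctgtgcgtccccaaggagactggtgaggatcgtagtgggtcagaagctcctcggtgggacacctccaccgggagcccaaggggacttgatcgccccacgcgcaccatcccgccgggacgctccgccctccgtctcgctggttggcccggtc
Slc25a4, chr8:46211064-46211312, - strand: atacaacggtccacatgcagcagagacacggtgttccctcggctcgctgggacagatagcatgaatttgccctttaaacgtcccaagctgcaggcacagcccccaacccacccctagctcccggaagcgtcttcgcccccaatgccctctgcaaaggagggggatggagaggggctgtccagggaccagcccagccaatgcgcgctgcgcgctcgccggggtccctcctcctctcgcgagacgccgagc

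In the 250 bases before the start, *Slc22a18* had 0 CpG and 52.8% GC, and *Slc37a2* had 6 CpG and 53.6% GC. The other 4 windows were richer, with 18 CpG for *Slc25a42*, 27 for *Slc1a1*, 18 for *Slc25a4* and 16 for *Slc29a2*. The median over all 32851 windows was 6 CpG and 52.4% GC, and over the members 16 CpG and 61.6% GC. These sets are unlike: the windows cover 27025 genes with no limit on expression, whereas members had to reach 1 FPKM. Each member also gave 1 window to its median. Genes of like expression were not compared, and the motif shares below use the same windows. Higher and lower genes both included CpG-rich starts, and the genes with the lowest levels in DMSO, *Slc22a18* and *Slc37a2*, had the fewest CpG. The letters TGACTCA, searched on both strands, occurred in 4.46% of all windows. Counted per gene, they were in 5.16% of 27025 genes and in 3 of 106 members, or 2.83% (*Slc25a13*, *Slc37a2* and *Slc9a3r2*). The C/EBP-ATF type motif TGATGNAA was in 3.45% of windows, in 3.91% of genes and in 2 members, or 1.89% (*Slc50a1* and *Slc7a7*). TCACGTGA, an E-box type found at lysosomal genes, was in 0.785% of windows, in 0.907% of genes and in 3 members, or 2.83% (*Slc25a36*, *Slc35a5* and *Slc37a3*). None of the 3 motifs holds another of them. These matches describe letters in a window and are not evidence of binding.

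Among ion and pH carriers, *Slc4a11* had the largest ratio of any member. It belongs to the bicarbonate transporter family by sequence, moves protons and ammonia, and is known from the corneal endothelium. *Slc4a11* (chr2:130684110-130697493, mm10) was at 5.75 FPKM in PBS+DMSO against 40.3 in PBS+GSK-J4, and 7.81 in AA+DMSO against 33.5 in AA+GSK-J4. Both GSK-J4 libraries stood well above both DMSO libraries, with log2 ratios of 2.61 without AA and 1.97 with AA. Over the 300 genes most similar to it in level, the medians were -0.30 and -0.25. Across the alternative pseudocounts and scalings its ratio lay between 2.08 and 2.97 without AA and between 1.59 and 2.28 with AA. It was the only one of the 8 genes past 2-fold in both comparisons to stay past it under each of these settings in both. The other Slc4 members had smaller ratios. Without AA the sodium coupled bicarbonate carriers *Slc4a7* and *Slc4a8* were at -0.04 and 0.55, the first turning positive under another scaling. *Slc26a2*, a sulphate carrier, was past 2-fold with AA and short of it without AA (3.28 FPKM in AA+GSK-J4 against 1.11 in AA+DMSO, a ratio of 1.02, beside 0.48 without AA). In this class as a whole 11 of 14 members had a ratio above 0 without AA and 8 of 13 with AA. The class medians were 0.39 and 0.24, beside -0.17 and -0.16 for all genes tested.

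Organelle carriers held 2 of the 5 members past 2-fold higher in both GSK-J4 comparisons. *Slc37a2*, a sugar phosphate exchanger of the endoplasmic reticulum (chr9:37227536-37255412), was at 0.754 FPKM in PBS+DMSO against 4.49 in PBS+GSK-J4, and 0.690 in AA+DMSO against 3.50 in AA+GSK-J4. Its level was under 1 FPKM in both DMSO libraries and over 3 in both GSK-J4 libraries, and its ratios were 1.65 and 1.41. It met the minimum of 1 FPKM only through the GSK-J4 libraries, so a higher ratio followed from how it entered. Across the alternative pseudocounts and scalings its ratio lay between 0.72 and 2.43 without AA and between 0.58 and 2.19 with AA. *Slc25a42*, which carries coenzyme A into mitochondria (chr8:70184290-70212359), was at 3.98, 13.6, 3.64 and 10.8 FPKM in the same order. Its ratios of 1.56 and 1.34 were the highest of the Slc25 family in each comparison, beside medians of -0.13 and -0.03 for genes near it in expression.

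Of the plasma membrane carriers, *Slc22a18* and *Slc1a1* were also higher in both comparisons. *Slc22a18*, an imprinted gene of the organic cation transporter family (chr7:143473717-143499316), was at 0.366 FPKM in PBS+DMSO against 3.50 in PBS+GSK-J4, and 0.557 in AA+DMSO against 3.03 in AA+GSK-J4. With DMSO levels this low its ratios of 1.72 and 1.37 depended on the pseudocount, and ranged from 0.66 to 2.95 without AA. *Slc22a18* also met the minimum of 1 FPKM only through the GSK-J4 libraries, so a higher ratio followed from how it entered. *Slc1a1*, a glutamate and cysteine transporter (chr19:28835062-28913952), was at 1.53, 4.96, 2.09 and 5.72 FPKM, with ratios of 1.24 and 1.12. An antisense transcript (*4430402I18Rik*) shares 30.1% of its 50-base words, and whether the counting used strand is not stated.

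The amino acid class held *Slc1a1* and 2 further members that, as deposited, were past 2-fold without AA and short of it with AA. *Slc38a7*, a lysosomal glutamine carrier, was at 7.16 FPKM in PBS+DMSO against 24.8 in PBS+GSK-J4, and 11.4 in AA+DMSO against 21.5 in AA+GSK-J4. Its ratios were 1.66 and 0.86, and its level was higher in AA+DMSO than in PBS+DMSO. With AA it passed 2-fold under each of the 3 rescalings, at 1.01 to 1.17. *Slc38a3*, a sodium coupled glutamine transporter, was at 1.08, 4.79, 1.09 and 2.96 FPKM, with ratios of 1.47 and 0.92, the second lying between 1.08 and 1.15 under the same rescalings. Whether these responses differ between the AA conditions was not tested. In the Slc38 family, 2 of 7 members were higher without AA, beside 4.96% of all genes tested, and 0 of 6 with AA, beside 4.13%. The family medians were 0.11 and 0.38, beside -0.17 and -0.16 for all genes tested.

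*Slc6a15*, a sodium dependent carrier of branched-chain and other neutral amino acids (chr10:103367527-103419373), went the other way. It was at 4.74 FPKM in PBS+DMSO against 1.55 in PBS+GSK-J4, and 4.05 in AA+DMSO against 1.14 in AA+GSK-J4. Its ratios were -1.17 and -1.24, while genes near it in expression had medians of 0.11 and 0.12. The creatine transporter *Slc6a8*, the most abundant member of the class, was at 55.6, 76.2, 55.9 and 80.8 FPKM with ratios of 0.45 and 0.52, and *Slc38a4* was at 55.8, 41.6, 55.1 and 45.7 with ratios of -0.42 and -0.27. Over the class, 3 of 18 members were higher and 1 was lower without AA (median 0.11), and 1 of 16 was higher and 1 lower with AA (median 0.15). All genes tested had shares of 4.96% higher and 3.5% lower without AA, and 4.13% and 3.38% with AA.

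**Figure D3:**
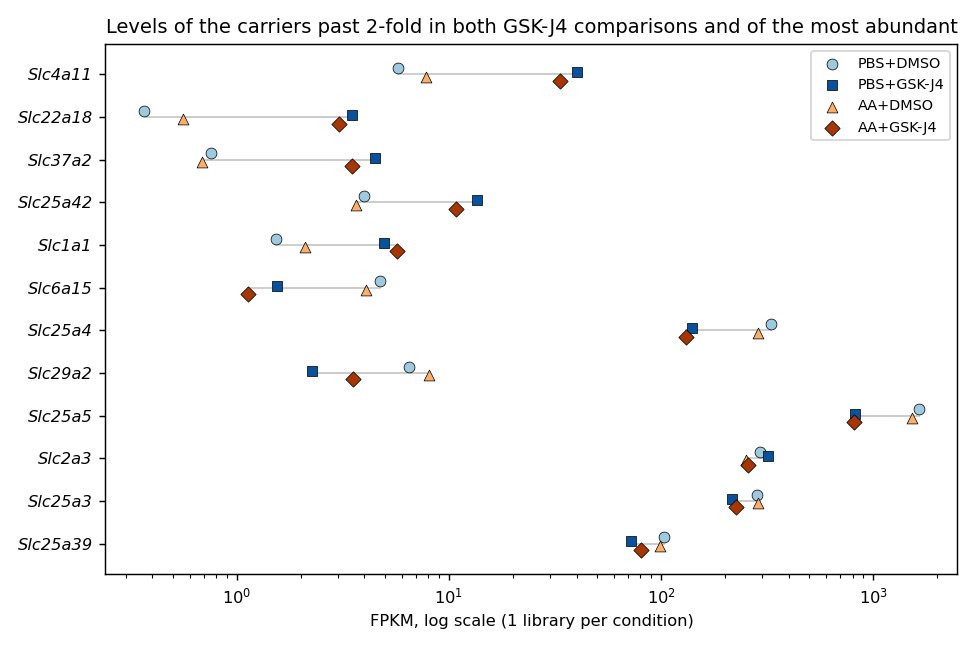
FPKM (log scale) in each of the 4 libraries for the 8 members past 2-fold in both GSK-J4 comparisons and for the most abundant members. GSK-J4 libraries (squares and diamonds) lie to the right of the DMSO libraries for *Slc4a11* to *Slc1a1* and to the left for *Slc6a15*, *Slc25a4*, *Slc29a2* and *Slc25a5*, whereas for *Slc2a3* the 4 values lie between 252 and 320.

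The mitochondrial family Slc25 held the most abundant member and the most members. *Slc25a5* and *Slc25a4* are adenine nucleotide translocases, which exchange ATP for ADP. *Slc25a5* was at 1639 FPKM in PBS+DMSO against 825 in PBS+GSK-J4, and 1529 in AA+DMSO against 814 in AA+GSK-J4. Its ratios of -0.99 and -0.91 fell just short of 2-fold, and 46.6% of its 50-base words occur in other transcripts, among them its pseudogene copies, so its level is uncertain. *Slc25a4* (chr8:46206815-46211063), which shares no such words, was at 331, 140, 288 and 131 FPKM, with ratios of -1.24 and -1.13. Genes near *Slc25a4* in expression had medians of -0.67 and -0.60, so a part of its ratio was common to genes of its level. Scaling to the same total left it at -0.85 and -0.80, in the same direction but short of 2-fold.

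Other Slc25 members with lower values included *Slc25a15*, the ornithine carrier, at 19.5, 9.55, 16.7 and 7.98 FPKM (ratios -0.96 and -0.98), and *Slc25a1*, the citrate carrier, at 37.8, 21.1, 35.9 and 19.7 (ratios -0.81 and -0.84). Neither reached 2-fold, and both were named after their values were seen. The phosphate carrier *Slc25a3* was at 282, 215, 286 and 225 FPKM, with ratios of -0.39 and -0.34 that were near 0 after scaling to the same total. *Slc25a39*, linked to mitochondrial glutathione, was at 103, 72.2, 98.9 and 80.7 FPKM, with ratios of -0.51 and -0.29, of which the second changed sign after that scaling. On the other side, the peroxisomal carrier *Slc25a17*, also named after its values were seen, was at 32.3, 59.4, 29.1 and 49.4 FPKM with ratios of 0.86 and 0.74.

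Over the whole family, 21 of 34 members had a ratio below 0 without AA and 20 of 35 with AA. The family median was -0.31 and -0.14, the lowest without AA of the families with at least 4 members. Set beside genes of like expression, the median difference was 0.03 and 0.01, so the family lay at the level of other genes of its abundance. Past 2-fold were 1 higher and 2 lower members without AA (*Slc25a42*, *Slc25a4* and *Slc25a53*), and 1 higher and 1 lower with AA. The shares over all genes tested were 4.96% higher and 3.5% lower without AA, and 4.13% and 3.38% with AA.

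**Figure D4:**
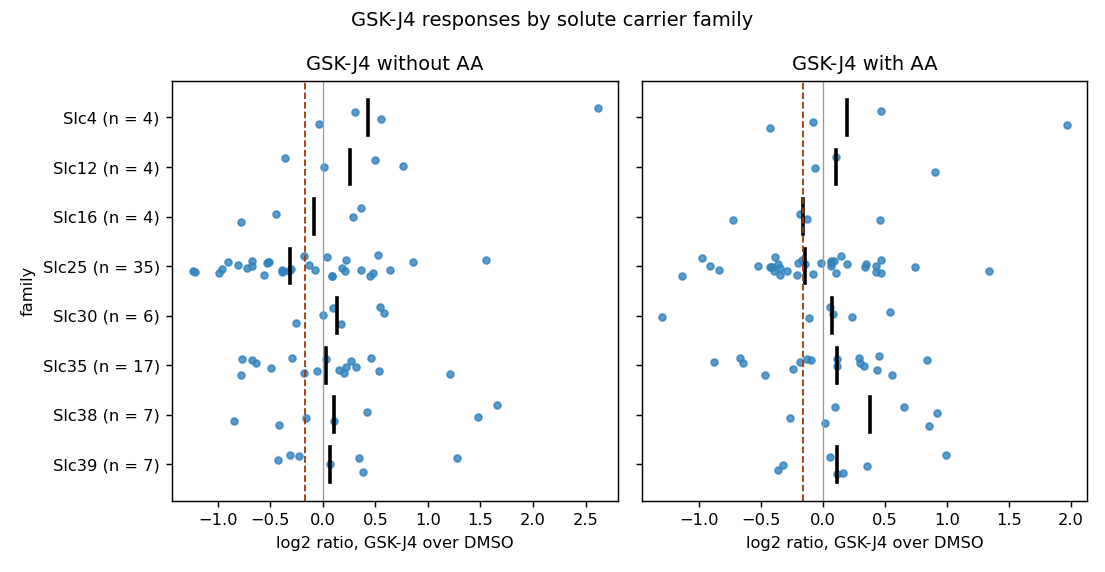
Log2 ratio of GSK-J4 over DMSO for each tested member of the families with at least 4 members, without AA (left) and with AA (right), with points spread vertically only for legibility and n counting all members, also those not tested in one comparison. Black bars are family medians and the dashed line is the median of all genes tested (-0.17 and -0.16). Slc25 is centred at -0.31 and -0.14, while *Slc4a11* stands alone at the right of Slc4.

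Nucleoside and vitamin carriers included the third gene lower in both comparisons. *Slc29a2*, an equilibrative nucleoside transporter (chr19:5024081-5032000), was at 6.49 FPKM in PBS+DMSO against 2.27 in PBS+GSK-J4, and 8.10 in AA+DMSO against 3.53 in AA+GSK-J4. Its ratios were -1.19 and -1.01, beside medians of 0.01 and 0.00 for genes near it in expression. In the same class the 2 Slc19 members had opposite signs. The reduced folate carrier *Slc19a1* was at 3.97 FPKM in PBS+DMSO and 6.53 in AA+DMSO (ratios -0.73 and -0.79), and the thiamine carrier *Slc19a2* was at 35.2, 56.8, 32.3 and 51.7 (ratios 0.68 and 0.66), and both were named after their values were seen. The class medians over 8 members were -0.05 and -0.16.

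Ascorbate enters cells through the sodium coupled carriers *Slc23a1* and *Slc23a2*, and its oxidised form through glucose transporters such as *Slc2a3* and *Slc2a8*. *Slc23a1* is not among the members. *Slc23a2* was at 11.5 FPKM in PBS+DMSO against 11.8 in PBS+GSK-J4, and 11.5 in AA+DMSO against 13.6 in AA+GSK-J4. Its AA ratios were -0.00 in DMSO and 0.18 in GSK-J4, and its level in the DMSO libraries was nearly equal. *Slc2a3*, the most abundant sugar carrier among the members, was at 294, 320, 252 and 256 FPKM. Its GSK-J4 ratios were 0.12 and 0.02, while genes of its level had medians of -0.66 and -0.60, and its AA ratios were -0.22 and -0.32. In the tables it shares its locus with *Nanog*. *Slc2a8* was at 3.59, 4.04, 3.69 and 3.34 FPKM, with AA ratios of 0.03 and -0.21.

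The other sugar carriers held one member past 2-fold. *Slc5a1*, the sodium glucose cotransporter, was at 1.89 FPKM in PBS+DMSO against 5.17 in PBS+GSK-J4, and 1.76 in AA+DMSO against 1.73 in AA+GSK-J4. A single library, PBS+GSK-J4, stood above the other three, and the ratios were 1.09 without AA and -0.02 with AA. *Slc50a1*, a sugar efflux carrier named after its values were seen, was at 11.6, 20.6, 10.9 and 19.9 FPKM, with ratios of 0.78 and 0.81.

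The lactate carrier *Slc16a1* needs a partner glycoprotein, basigin (*Bsg*) or embigin (*Emb*), to reach the membrane. *Slc16a1* was at 59.3 FPKM in PBS+DMSO against 34.2 in PBS+GSK-J4, and 53.9 in AA+DMSO against 32.2 in AA+GSK-J4, with ratios of -0.78 and -0.73. *Emb* was at 30.8, 11.7, 25.5 and 9.70 FPKM with ratios of -1.32 and -1.31, whereas *Bsg* was at 265, 279, 234 and 227 with ratios of 0.07 and -0.04. Of 25 partner genes and carriers without an Slc symbol, 13 had a value. *Emb* alone was lower past 2-fold in both GSK-J4 comparisons, and no other of the 13 was called in any comparison. Over all genes tested, 3.5% were lower without AA and 3.38% with AA. The list medians were -0.29 and -0.25, beside -0.17 and -0.16 for all genes tested.

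Metal carriers had medians close to 0 (0.00 without AA and 0.06 with AA over 19 members). *Slc39a11*, a zinc carrier, was higher without AA, at 1.96 FPKM in PBS+DMSO against 6.17 in PBS+GSK-J4, and 5.07 in AA+DMSO against 5.79 in AA+GSK-J4. Its PBS+DMSO library was the low one, so it was also higher with AA in DMSO (ratio 1.04). The tables list the gene by 2 coding sequence groups, sets of transcripts that share a coding sequence, and the first was listed at 0.000611 FPKM in PBS+DMSO and at 4.53, 4.49 and 3.61 in the other libraries. The copper related *Slc31a2* was at 5.70, 12.4, 4.58 and 9.21 FPKM, just under 2-fold without AA and with a ratio of 0.87 with AA. The abundant zinc carriers *Slc39a1* (32.9, 26.3, 33.9 and 27 FPKM) and *Slc39a7* (60.6, 44.8, 55.8 and 43.3) had ratios between -0.43 and -0.31. *Slc39a7* shares 82.2% of its 50-base words with the readthrough gene model *Gm20427*, so its level is uncertain. Of the words of *Slc39a1*, 21.8% occur in other transcripts (*Slc39a1-ps*). The Slc30 family of zinc exporters had medians of 0.14 and 0.07 over 6 members.

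Carriers of the Golgi and endoplasmic reticulum, mostly the nucleotide sugar family Slc35, had medians of 0.03 and 0.12 over 21 members. *Slc35e4* was at 0.921, 3.43, 1.03 and 2.63 FPKM (ratios 1.21 and 0.84), and *Slc35f2* at 11.8, 6.53, 11.5 and 5.83 (ratios -0.77 and -0.88) was the lowest of its family by mean ratio. *Slc33a1*, which carries acetyl-CoA into the endoplasmic reticulum and was named after its values were seen, was at 11.6, 21.3, 10.1 and 18.3 FPKM with ratios of 0.83 and 0.80.

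The remaining groups held few calls. Carriers of lipids, organic ions and others had medians of 0.04 and -0.04 over 9 members, of which *Slc22a18* alone was past 2-fold. Carriers of carboxylates and phosphate had 0 calls among 8 members and medians of -0.01 and -0.07. Over all genes tested, GSK-J4 calls in 1 direction made up between 3.38% and 4.96%. The phosphate importer *Slc20a1* was at 52.6, 42.3, 48.1 and 47.5 FPKM with ratios of -0.31 and -0.02. The 4 proteins that are not carriers all had ratios below 0 in both comparisons, as did the median of all genes. Among them *Slc9a3r1*, a scaffold that anchors ion carriers, was at 33.7, 19, 37.1 and 21.4 FPKM with ratios of -0.80 and -0.77. *Slc9a3r2* was close to 0 without AA (-0.01, beside -0.21 for genes near it in expression) and at -0.24 with AA.

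Among members reaching 5 FPKM in a library, the largest differences between the GSK-J4 comparisons were toward a lower ratio with AA, at -1.12 for *Slc39a11*, -1.11 for *Slc5a1* and -0.81 for *Slc38a7*. In the other direction the largest were 0.79 for *Slc37a3*, 0.56 for *Slc10a7* and 0.44 for *Slc45a4*. *Slc37a3* was at 7.08, 6.02, 5.21 and 8.31 FPKM, with ratios of -0.20 and 0.58. *Slc10a7* had ratios of -0.30 and 0.26, and *Slc45a4* had -0.04 and 0.39. For these last 3 genes the ratio without AA turned positive under another scaling, and no difference was tested.

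AA changed few members. In DMSO 2 of 134 members were higher (1.49%, beside 0.565% of all genes tested) and 1 was lower (0.746%, beside 0.735%). In GSK-J4 0 of 142 were higher, beside 0.512%, and 3 were lower (2.11%, beside 0.599%). All these calls were among members with a mean FPKM under 5. The medians were -0.01 and 0.02, and the SD across members was 0.27 and 0.35. *Slc4a2*, a chloride bicarbonate exchanger, was higher with AA in DMSO, at 1.47 FPKM in PBS+DMSO against 2.04 in PBS+GSK-J4, and 4.30 in AA+DMSO against 2.96 in AA+GSK-J4 (AA ratios 1.10 and 0.38). *Slc43a3*, which belongs by sequence to an amino acid carrier family and carries purine bases, was at 1.89 and 1.96 FPKM in the PBS libraries and listed at 0 to 3 decimals in both AA libraries, so no fold is given. It was called lower in both AA comparisons, and because each crosses the deposited tables its absence from one table cannot be told apart from an effect of AA. The other calls were *Slc39a11* in DMSO and *Slc5a1* and *Slc30a6* in GSK-J4. *Slc30a6*, a zinc carrier of the Golgi, was at 1.99, 3.48 and 1.48 FPKM in PBS+DMSO, PBS+GSK-J4 and AA+DMSO and at 0.00971 in AA+GSK-J4, so that it was also lower for GSK-J4 with AA (ratio -1.30).

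Chromosome and shared sequence were checked for all members. The 7 members on the X chromosome had median ratios of 0.10 and 0.07, beside 0.03 and -0.01 for the other 136. Shared sequence touched 32 members, which had over 10% of their 50-base words in other transcripts or a locus shared with another gene in the tables. Without them 9 of 110 members were higher and 3 lower under GSK-J4 without AA, beside 4.96% and 3.5% of all genes tested. With AA, 5 of 108 were higher and 4 lower, beside 4.13% and 3.38%. The medians were 0.04 and -0.00. For AA in DMSO *Slc4a2* dropped out, leaving 1 of 102 higher and 1 lower, beside 0.565% and 0.735%. For AA in GSK-J4 0 of 110 were higher and 3 lower, beside 0.512% and 0.599%.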

How the data were processed

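Sequencing was single-end on 4 libraries of total RNA. The authors removed duplicate reads and used TopHat2, Cufflinks2 and CummeRbund through Maser, with mm10 as the build in the submitters' processing notes. The deposited values are FPKM, scaled by exon length and mapped fragments, listed per coding sequence group in 2 tables (GSK-J4 against DMSO, without and with AA). The columns used are headed log10 but hold linear FPKM, and the heading AA_DMAO was read as AA+DMSO. The scaling between libraries is not given in the sources used here. Removing duplicates can lower the values of abundant genes such as *Slc25a5*, by an amount not known here. The tables' own fold changes, test statistics, p-values and q-values were not used.

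FPKM was summed per gene with Python 3.11.15, numpy 2.4.6 and pandas 2.3.3, and figures were drawn with matplotlib 3.10.9. A gene with any failed estimate was dropped. Log2 ratios used a pseudocount of 1, a minimum FPKM of 1 in either library and a 2-fold threshold. The code was run on simulated data with changes well past the threshold in well expressed genes, which cannot test calls at low FPKM. No read counts are given. Steps left by whole reads among low FPKM were looked for, and the best relative depth placed 10 of 121 genes on steps against 9 for the next best between the PBS libraries, 26 of 157 against 25 between the AA libraries, and 60 of 368 against 51 between the DMSO libraries, so depth is unknown and no interval is given.

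Samples were grouped by their GEO titles. The members, lists and rules were chosen with earlier results of these data known, and the promoter motifs after the values were seen. Genes were named where they were past 2-fold in both GSK-J4 comparisons, among the largest AA changes, among the 5 most abundant, carriers of ascorbate, among the 3 largest differences between the GSK-J4 comparisons in each direction, or the highest and lowest of a family of at least 4. Others past 2-fold in any comparison are named because such counts are small, and those marked so were chosen after their values were seen. Of the genes this rule names, 1 is not reported here. Substrate classes were assigned by family. Shared sequence was counted as 50-base words of GENCODE transcripts found in other genes. Alternatives were other pseudocounts, filters, scalings and thresholds, 1 value per coding sequence group, keeping failed estimates, and including the 13 carriers left out, and, added after seeing the data, leaving out members with shared sequence and recomputing every ratio of the members past 2-fold.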

Additional observations from a re-analysis of the deposited data

Results flagged for a closer look

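For 4 members the same contrast had opposite signs in its 2 settings, with 1 of them past 2-fold. None of these differences was tested, as there is 1 library per condition. The GSK-J4 ratio of *Slc25a53*, a mitochondrial family member, was -1.22 without AA and 0.07 with AA, a difference of 1.28, with FPKM of 2.81 in PBS+DMSO against 0.639 in PBS+GSK-J4, and 2.07 in AA+DMSO against 2.21 in AA+GSK-J4. It shares its locus in the tables with *Zcchc18*. For *Slc30a6* the ratio was 0.58 without AA and -1.30 with AA, a difference of -1.88, and rests on the value of 0.00971 FPKM in AA+GSK-J4. For *Slc5a1* the ratio was 1.09 without AA and -0.02 with AA, a difference of -1.11. The AA ratio of *Slc39a11* was 1.04 in DMSO and -0.08 in GSK-J4, a difference of -1.12, where 1 of its 2 coding sequence groups was listed at 0.000611 FPKM in PBS+DMSO. In each case 1 library stands apart from the other three, and all 4 genes stayed under 7 FPKM in every library.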

How the results depend on the processing

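Of the 30 ratios past 2-fold in any comparison, 0 reversed under the other pseudocounts and scalings and 4 stayed past 2-fold under all of them, some of these ratios having been added after seeing the data. In the counts below, the share of all genes tested past the same threshold follows in brackets. Members tested numbered 142 and 140 for GSK-J4 without and with AA. They numbered 134 and 142 for AA in DMSO and in GSK-J4, unless given otherwise. A pseudocount of 0.1 gave 16 higher (8.11%) and 8 lower (5.54%) members for GSK-J4 without AA. It gave 12 higher (7.24%) with AA and 4 higher (1.27%) for AA in GSK-J4. A pseudocount of 5 gave 3 higher (1.22%) and 1 lower (1.48%) without AA, and 1 higher (1.08%) and 1 lower (1.12%) with AA. It gave 0 higher (0.0113%) and 0 lower (0.0339%) for AA in DMSO, and 0 lower (0.0871%) for AA in GSK-J4. With a minimum FPKM of 5 in either library, 5 of 85 were higher (3.94%) and 2 lower (4.12%) without AA, with a median of -0.14, below 0. With AA, 3 of 86 were higher (3.27%) and 2 lower (3.61%). For AA in DMSO 1 of 83 was higher (0.261%) and 0 lower (0.163%), and for AA in GSK-J4 1 of 81 was lower (0.274%). A minimum FPKM of 1 in both libraries gave 0 of 130 lower (0.155%) for AA in DMSO and 1 of 135 lower (0.23%) for AA in GSK-J4. Centring gave medians of 0.21 and 0.15 for GSK-J4 without and with AA, with 11 higher (5.59%) and 2 lower (1.66%) members with AA. Upper quartile scaling gave 16 higher (7.34%) and 1 lower (1.36%) without AA, with a median of 0.26. With AA it gave 13 higher (5.97%) and 2 lower (1.32%), with a median of 0.23, and for AA in GSK-J4 1 higher (0.61%). Scaling to the same total gave 18 higher (8.74%) and 0 lower (1.04%) without AA, with a median of 0.35. With AA it gave 15 higher (6.85%) and 2 lower (1.08%), with a median of 0.30, and for AA in GSK-J4 1 higher (0.643%). A 1.5-fold threshold gave 22 higher (11.6%) and 21 lower (19.3%) without AA, and 20 higher (10.1%) and 13 lower (17.8%) with AA. It gave 4 higher (2.09%) and 2 lower (2.22%) for AA in DMSO, and 4 higher (1.71%) for AA in GSK-J4. A 4-fold threshold gave 1 higher, *Slc4a11* (0.522%), and 0 lower (0.0652%) without AA, and 0 higher (0.416%) and 0 lower (0.0657%) with AA. It gave 0 higher (0.0452%) and 0 lower (0.0226%) for AA in DMSO, and 1 lower (0.0545%) for AA in GSK-J4. Taking 1 value per coding sequence group gave 10 of 147 higher (4.66%) with AA and 3 of 149 higher (0.877%) for AA in GSK-J4. Including the 13 carriers gave 2 of 145 lower (0.735%) for AA in DMSO. The other 92 counts and medians stayed within 1.5 times the main count or within 0.1 of the main median. Of 61 named GSK-J4 ratios, 52 kept their sign under every pseudocount and scaling tried. No paired analysis was possible within a comparison because each sets 1 library against 1 other, and leaving out a library removes the comparison; a fit pairing the GSK-J4 comparisons by AA was not run. Members with a low FPKM are limited by an unknown read depth.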
